A study of Danio rerio with 12 samples.

Results

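This is a comparison of wild-type zebrafish at 72 hours post fertilization (hpf) with wild-type zebrafish at 48 hpf, in bulk RNA sequencing libraries. It rests on 6 of the 12 libraries of the series, 3 for each age, taken by the genotype and age in their labels. All 6 are labelled strain AB, kept in 0.3X Danieau buffer with no further treatment stated, and made from total RNA extracted with TRIzol by a standard Illumina procedure. The other 6 libraries, 3 for each age, are labelled mycn mutant. They carry the same strain label and were kept in the same way, and their allele is not stated. They enter the test of whether a change differed between genotypes and the account of their own change beside it. They also enter an alternative model of all 12 libraries, and a few of their levels are given. The sources used here do not say whether a library came from a single embryo, a pool or a separate clutch, so p-values describe the spread of these libraries alone, part of which may be technical. The tissue label says only that the cells were embryonic. The markers of eye, brain, muscle, liver, blood and skin given below were all found, as in whole embryos.

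Zebrafish hatch from the chorion at around the third day of development and begin to swim freely soon afterwards. At that time the photoreceptors of the retina form their light-sensing outer segments, the gut, liver and pancreas prepare for feeding while yolk still nourishes the animal, cartilage of the jaw and gills is laid down, and neurons form synapses in large number. Organs that served the embryo alone, such as the hatching gland, which secretes proteases that soften the chorion, are lost. Embryos of this age also carry primitive red cells with embryonic globins, and pigment cells derived from the neural crest.

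Between these ages RNA of photoreceptors, synapses, myelin, digestive enzymes and cartilage rose, and RNA of the hatching gland, embryonic red cells, pigment cells, posterior Hox genes and ribosomal proteins fell. The ultraviolet cone opsin opn1sw1 went from 0.0398 to 2087 CPM and the cartilage protein matn1 from 5.27 to 1118 CPM. The hatching enzyme he1.1 went from 1322 to 2.01 CPM and the embryonic globin hbae3 from 8416 to 633 CPM. These are means of 3 libraries. CPM are counts per 1000000 counts of a library, whose size was first scaled by TMM as described below.

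Of 31465 genes in the deposited table, 20470 had enough counts to be tested. A gene is said to have risen or fallen from 48 to 72 hpf where its adjusted p was under 0.05 in the quasi-likelihood F test of edgeR, with p-values adjusted after Benjamini and Hochberg; all adjusted p-values below are of this kind. By this rule 7038 genes rose, 34.4% of those tested, and 7248 fell, 35.4%. At least 2-fold changes were seen in 4416 genes that rose (21.6%) and 3912 that fell (19.1%). For counts of list members that rose or fell, the background is 34.4% and 35.4%. The shares of 21.6% and 19.1% are the background only where a change of at least 2-fold is stated. The median log2 fold change, 72 over 48 hpf, was -0.032 over all tested genes. Large changes were mostly rises: 247 genes rose at least 32-fold and 62 fell that far. Levels are CPM of the library size scaled by TMM, which centres most genes on no change. Scaling by library totals alone moved the median of all genes to 0.41, and 10063 genes then rose and 4417 fell, so directions here are relative to the bulk of genes. Of the genes named below, kdrl, agr2 and rbpjb no longer passed under that scaling, and sox9a, cd63, fbl, hnf4a, ins and mycn passed as rises. Library totals ran from 15746159 to 19732340 counts. The biological coefficient of variation was 0.2 at 48 hpf and 0.0704 at 72 hpf, and the 20 most counted genes held 16% to 18.3% of counts at 48 hpf and 9.84% to 10.5% at 72 hpf.

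Tissues are described by 43 lists of known markers and 51 gene families gathered by symbol. The lists name 1616 symbols, of which 1562 were found in the table. In whole embryos, fewer cells of a type and less RNA per cell cannot be told apart. Some list members passed the filter on low counts through 1 age only. Such a gene was below the filter's limit in at least 1 library of the other age, which favours a difference but does not force it. Their number is given for each list where they made up at least 20% of the tested members. Counts of such lists are in part set by the filter.

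**Figure D1:**
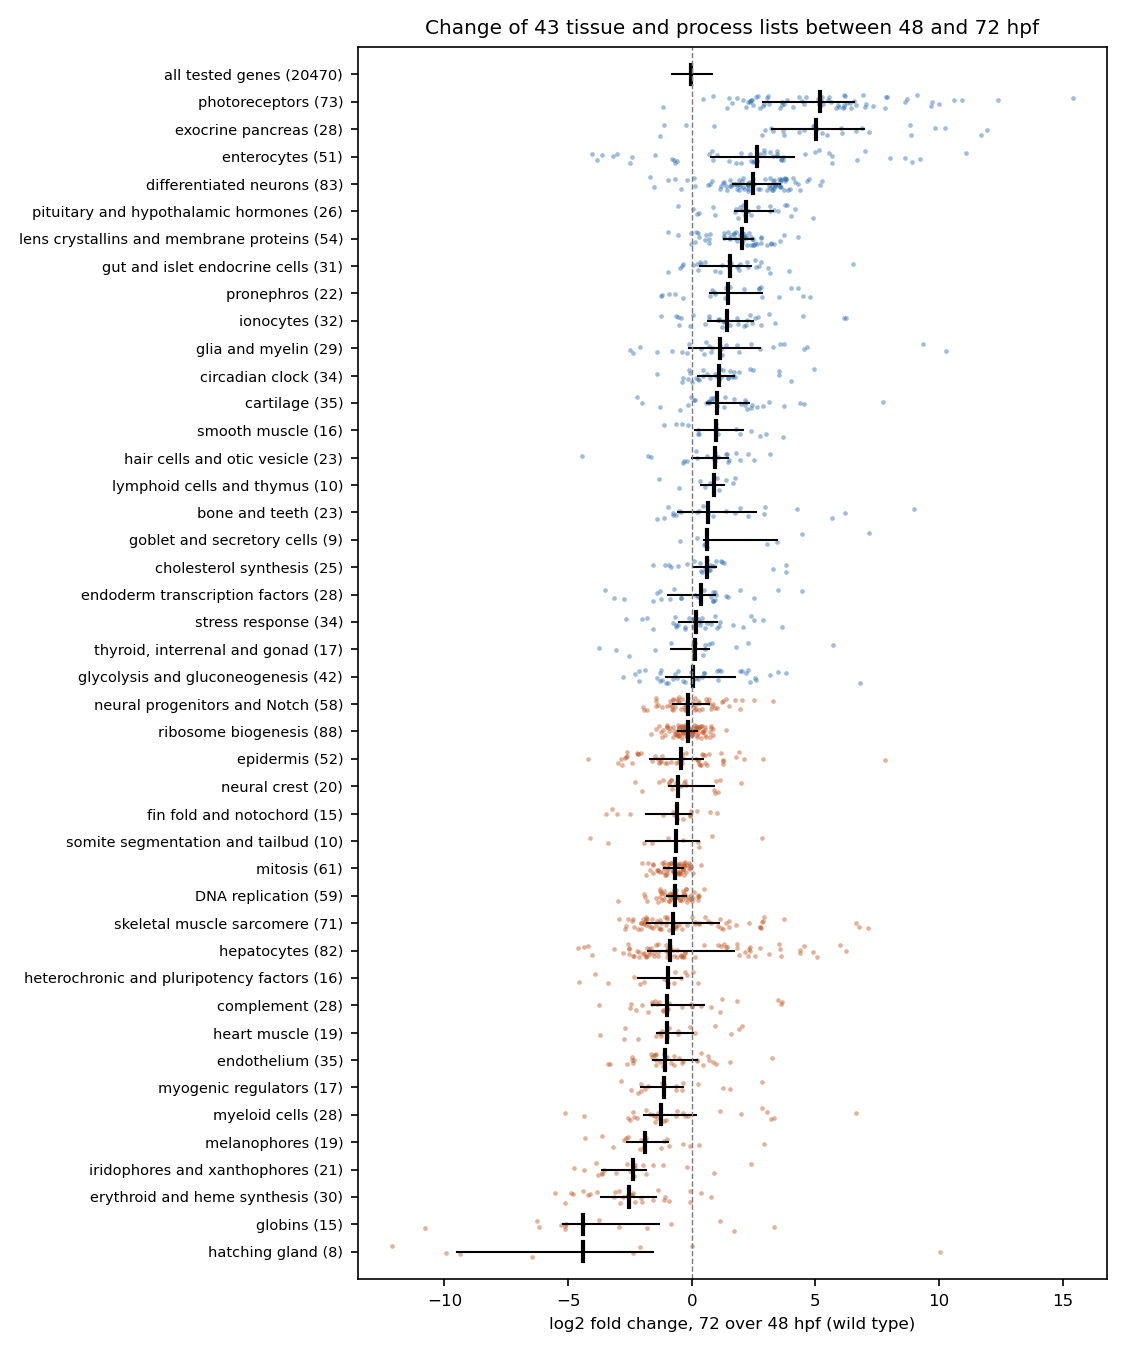
Log2 fold change (72 over 48 hpf, x axis) of every tested member of 43 marker lists (y axis, tested members in parentheses), with the median as a thick bar and the quartiles as a thin line; the top line is for all 20470 tested genes. Photoreceptors (5.2) and exocrine pancreas (5.01) have the highest medians among these lists, and hatching gland (-4.41) and globins (-4.39) the lowest.

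RNA of photoreceptor genes rose, and which tissue of the embryo it came from was not tested. Photoreceptor genes were 81 listed, 78 found and 73 tested, and 72 of these rose while 1 fell, with a median log2 fold change of 5.2. Of the tested members 40 passed the filter through 72 hpf only. Their share of all counts went from 0.0221% ± 0.00586 to 1.28% ± 0.142 (mean ± SD, n = 3 per age, as for every mean below).

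The cone opsins are the light receptors of the colour-sensing cones. opn1sw1, the ultraviolet opsin, had 0.0605, 0 and 0.0590 CPM at 48 hpf and 1874, 2224 and 2164 CPM at 72 hpf. This gene was at or next to nothing in each younger library, with 2 counts over the 3 libraries against 119246 at 72 hpf, a count ratio of 51074 with an exact 95% counting interval from 14138 to 421742. opn1mw1, a green opsin, went from 0.102 ± 0.125 to 583 ± 76.9 CPM (adjusted p = 1.11e-08, log2 fold change 12.39, SE 0.33). opn1sw2, the blue opsin, went from 0.682 to 571 CPM, and opn1lw2, a red opsin, from 1.11 to 933 CPM, with log2 fold changes of 9.68 and 9.72. For each of these 4 opsins the libraries of the 2 ages stood far apart. rho, the opsin of rods, had 2.78, 1.54 and 4.31 CPM at 48 hpf and 534, 735 and 783 CPM at 72 hpf, and rose by 7.88 on the log2 scale (SE 0.32, adjusted p = 6.85e-08). Its RNA was present at a low level in every younger library and high in every older one.

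The cascade behind the opsins rose with them. gnb3b and gnat2, subunits of the cone transducin that opsins activate, went from 0.304 to 611 CPM and from 2.39 to 535 CPM. pde6c, the cone phosphodiesterase that transducin switches on, rose by 6.63 on the log2 scale, arr3a, a cone arrestin that ends the response, by 6.29, and grk7a, an opsin kinase, by 7.34. prph2a and prph2b, which shape the rims of the outer segment discs, rose by 10.01 and 10.61. In contrast to these, crx, a transcription factor of photoreceptor precursors, was present in all younger libraries, with 28.4, 19.8 and 44.2 CPM at 48 hpf and 122, 144 and 126 CPM at 72 hpf. Its libraries did not overlap, and its rise of 2.09 (SE 0.24, adjusted p = 3.31e-05) was small beside those of the genes above. The member that fell was rcvrnb, a calcium sensor of the recoverin family, from 6.23 ± 1.01 to 2.76 ± 0.269 CPM (log2 fold change -1.17, adjusted p = 5.30e-04).

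Among 24 tested opsins of all kinds, the visual ones above included, 16 rose and 5 fell, with 11 tested through 72 hpf only and 1 through 48 hpf only. opn5, a non-visual opsin sensitive to short wavelengths, fell from 2.89 ± 0.442 to 0.332 ± 0.0794 CPM (log2 fold change -3.10, adjusted p = 2.28e-05).

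Lens genes rose from levels that were already measurable at 48 hpf. Of 54 tested lens genes 41 rose and none fell, with a median of 2.03, and their share of counts went from 0.802% ± 0.342 to 3.09% ± 0.0592. Close copies of gamma M crystallins share reads, so single members are uncertain. cryaa, a small heat shock protein that keeps crystallins in solution, rose from 10.4 ± 4.68 to 54.3 ± 5.4 CPM, crybb1, a beta crystallin, by 2.23 on the log2 scale, and the lens water channels mipa and mipb by 2.63 and 3.2. The early lens factor foxe3 did not pass (from 3.06 to 2.09 CPM, adjusted p = 0.0566).

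**Figure D2:**
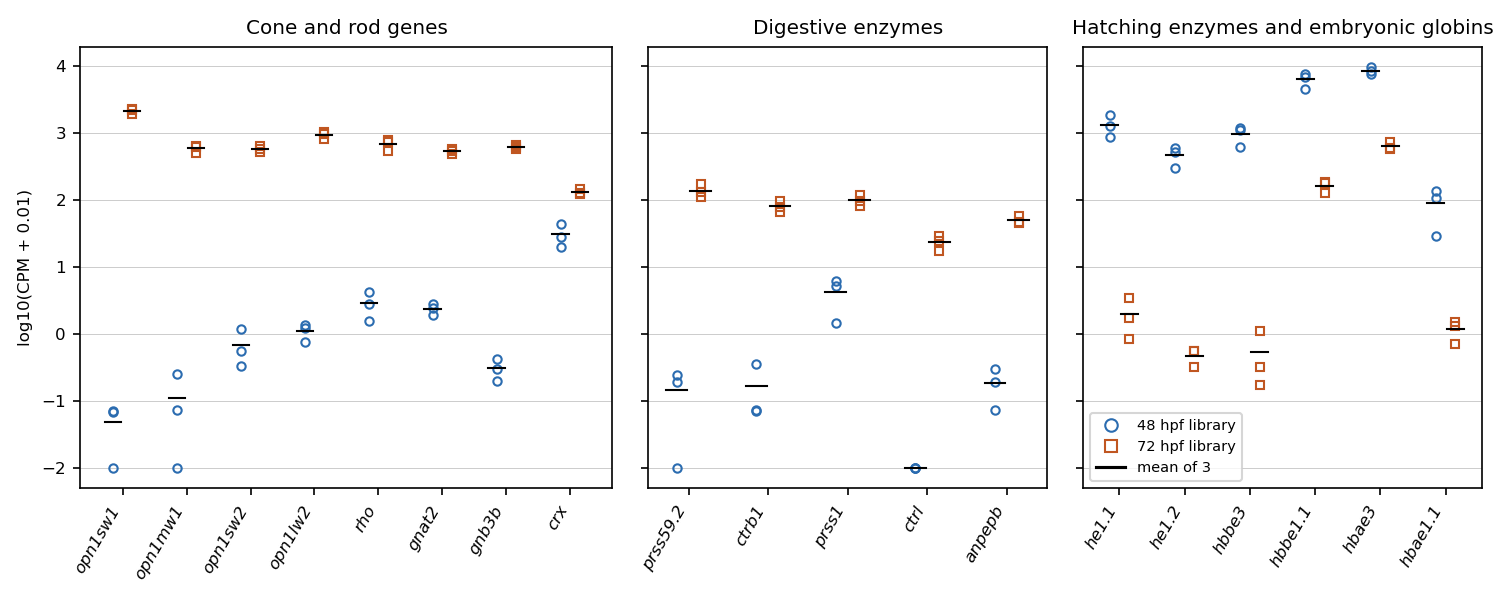
Level of named genes in each wild-type library, as log10(CPM + 0.01) on the y axis, with 48 hpf libraries as circles, 72 hpf libraries as squares and black bars at the means of 3. Opsins and digestive enzymes sit low at 48 hpf and high at 72 hpf, crx and prss1 start from a measured level, and hatching enzymes and embryonic globins go the other way.

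Most genes of neurons and their synapses rose. Of 83 tested genes of differentiated neurons 75 rose, 72 of them at least 2-fold, and 3 fell, with a median of 2.49, and 7 passed the filter through 72 hpf only. grin1b, the obligatory subunit of NMDA-type glutamate receptors, had 4.24, 4.74 and 7.49 CPM at 48 hpf and 203, 193 and 214 CPM at 72 hpf. The younger libraries were all low and the older all high (adjusted p = 4.82e-08, log2 fold change 5.21, SE 0.19). gad1b and gad2, which make the transmitter GABA, went from 9.34 to 185 CPM and from 10.33 to 154 CPM. snap25a, a protein of vesicle release, rose by 2.07, the vesicular glutamate transporter slc17a6b by 2.3, and the vesicular GABA transporter slc32a1 by 3.33. A close relative, slc17a6a, fell by 1.68 (adjusted p = 2.89e-04). elavl3, an RNA-binding protein of newly born neurons, did not pass, at 107 and 94.2 CPM at 48 and 72 hpf (adjusted p = 0.147).

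In the receptor and channel families more genes rose than fell, though many were tested through 72 hpf only. Of 29 ionotropic glutamate receptors tested 27 rose and none fell, and all 9 tested of the 12 metabotropic ones found rose, 3 of them tested through 72 hpf only. Among GABA and glycine receptors 23 of 26 rose, but 15 were tested through 72 hpf only, which favours a rise. Examples are gabrb2a from 0.627 to 24.8 CPM and glrba from 0.469 to 12.6 CPM, while glra4a fell by 0.99 on the log2 scale. Synaptotagmins, calcium sensors of vesicle fusion, rose in 18 of 20 cases (4 tested through 72 hpf only), with syt1a up by 3.51 on the log2 scale. Voltage-gated potassium channels rose in 28 of 40 cases and fell in 3, and sodium and calcium channels in 20 and 3 of 29. Of these 18 potassium and 7 sodium or calcium channels were tested through 72 hpf only, and 2 of each kind through 48 hpf only. Of the clustered and other protocadherins, adhesion molecules by which neurites recognise each other, 33 of 41 rose and 3 fell.

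Myelin genes came up steeply. mbpa, myelin basic protein, had 0, 0 and 0.177 CPM at 48 hpf and 47.0, 44.2 and 42.3 CPM at 72 hpf. The younger libraries held 3 counts in all and the older ones 2553, a count ratio of 729 with an exact 95% counting interval from 249 to 3537 (adjusted p = 4.13e-08). plp1b and mpz, further proteins of the myelin sheath, went from 0.676 to 15.7 CPM and from 0.814 to 8.06 CPM, and the paralogue plp1a fell from 59.25 to 14 CPM (log2 fold change -2.08, adjusted p = 2.58e-06). slc1a2a, a glutamate transporter known from astrocytes in mammals, rose from 0.0202 ± 0.0349 to 33.9 ± 4.49 CPM. aqp4, a water channel of mammalian astrocytes, fell from 1.70 to 0.295 CPM. Over the glia and myelin list 20 of 29 tested genes rose and 6 fell, with 6 tested through 72 hpf only.

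Neural progenitor and Notch pathway genes rose in 21 and fell in 24 of 58 tested cases, near the 34.4% and 35.4% of all tested genes, and in 29 and 12 under library totals, with a median of -0.16 that became 0.28 under library totals. The retinal homeobox gene rx1 rose from 4.93 to 48.0 CPM. Falls included her12, a Notch target, by 1.94 on the log2 scale, and atoh7, which starts ganglion cell formation in the retina, by 0.99. Pituitary and hypothalamic hormone genes rose in 21 of 26 tested cases and none fell, with 17 tested through 72 hpf only. gh1, growth hormone, went from 0.547 ± 0.145 to 8.1 ± 1.27 CPM, pomca, the precursor of ACTH and melanocyte-stimulating hormone, from 0.398 ± 0.473 to 3.65 ± 0.530 CPM, and oxt, oxytocin, from 0.342 to 3.57 CPM. prl, prolactin, did not pass, with 2.75 and 2.86 CPM at 48 and 72 hpf (adjusted p = 0.886). tg, thyroglobulin, the protein from which thyroid hormone is made, rose from 0.707 ± 0.224 to 38.1 ± 4.80 CPM (adjusted p = 4.13e-08, log2 fold change 5.73, SE 0.20).

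The digestive tract changed unequally: most exocrine pancreas and intestinal genes rose, lipoprotein genes fell, and more liver genes fell than rose. Of 40 exocrine pancreas genes found 28 were tested, 18 of them through 72 hpf only, and 25 rose. prss59.2, a trypsin that may share reads with its close copy prss59.1, had 0.182, 0 and 0.236 CPM at 48 hpf and 170.1, 111 and 132 CPM at 72 hpf. ctrl, a chymotrypsin-like protease, was at 0 in every library of 48 hpf and had 28.7, 24.7 and 17.6 CPM at 72 hpf, which is at least 388-fold higher against a floor of 3 counts over the group. prss1, a trypsin, was measurable at both ages, with 6.17, 1.47 and 5.25 CPM at 48 hpf and 120.2, 97.4 and 81.3 CPM at 72 hpf. In each of these genes all older libraries stood above all younger ones. amy2a, an amylase, and cel.1, a bile salt-activated lipase, rose by 5.27 and 6.90 on the log2 scale. The 2 members that fell were ptf1a, the factor that commits cells to the exocrine fate, from 6.58 to 2.67 CPM (log2 fold change -1.3, adjusted p = 8.94e-04), and rbpjb, a Notch pathway DNA-binding protein named after its values were seen, from 5.83 to 2.65 CPM.

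Among intestinal absorptive cell genes 36 of 51 tested rose and 12 fell, with 23 tested through 72 hpf only. The share of counts of the whole list nevertheless fell, from 1.24% ± 0.226 to 0.256% ± 0.00646. anpepb, a brush border peptidase, had 0.182, 0.0641 and 0.295 CPM at 48 hpf and 46.1, 57.5 and 44.5 CPM at 72 hpf. vil1, villin, which bundles the actin of microvilli, had 2.72, 3.14 and 3.36 CPM at 48 hpf and 138, 151 and 147 CPM at 72 hpf. Neither gene overlapped between ages, and their log2 fold changes were 8.02 (SE 0.26) and 5.56 (SE 0.12). fabp6, the ileal bile acid binding protein, was at 0 in all 48 hpf libraries and had 11.48, 20.6 and 14 CPM at 72 hpf, at least 249-fold higher against the same floor. slc5a1, the sodium-glucose transporter, went from 0.440 to 15.9 CPM. cdx1b, an intestinal transcription factor, rose from 2.79 ± 0.492 to 31.3 ± 1.61 CPM (log2 fold change 3.48, adjusted p = 8.13e-08), whereas hnf4a, shared by gut and liver, did not pass (from 12.4 to 13.4 CPM, adjusted p = 0.634). hnf4a did pass when the second library of 48 hpf was left out and under library totals.

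Of the 12 intestinal genes that fell, 5 are apolipoproteins of the A-I and A-IV type. apoa1a, the main protein of high-density lipoprotein, fell from 10466 ± 2281 to 639.5 ± 86.1 CPM (log2 fold change -4.03, adjusted p = 1.76e-07), and apoa4a fell from 185 to 13.1 CPM. These genes are also known from the yolk syncytial layer, which packs yolk lipid into lipoprotein, and a whole embryo does not separate the sources. Apolipoproteins as a family fell in 18 of 23 tested cases and rose in 2, and their share of counts went from 3.74% ± 0.875 to 0.854% ± 0.0934. The symbol pattern also took apobec2a, an RNA-editing enzyme relative that is no apolipoprotein and fell by 2.2 on the log2 scale. mttp, which loads lipid onto apolipoprotein B, rose by 0.83 on the log2 scale.

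Of 82 liver genes tested 26 rose and 50 fell. These are markers known from liver, and which tissue of the whole embryo their RNA came from was not tested. The falls therefore cannot be placed in the liver. fabp10a, the liver fatty acid binding protein used as a hepatocyte marker, had 3.51, 0.705 and 3.66 CPM at 48 hpf and 35.3, 33.8 and 29.1 CPM at 72 hpf. All older libraries were higher, by 3.62 on the log2 scale (SE 0.36, adjusted p = 1.21e-05). ttr, transthyretin, and gc, the vitamin D binding protein, went from 0.180 to 5.68 CPM and from 1.49 to 8.88 CPM. bhmt, an enzyme of methionine metabolism, fell from 9514 ± 1629 to 582 ± 79.3 CPM (log2 fold change -4.03, adjusted p = 1.10e-07). tfa, transferrin, fgb, a fibrinogen chain, and serpina1, a protease inhibitor of blood plasma, fell by 1.67, 1.73 and 1.35 on the log2 scale.

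Splitting these lists by mean level over both ages, a split chosen after the values were seen, separated the directions in part. Liver genes of at least 100 CPM fell in 26 of 28 cases and rose in none, with a median of -1.73, while those under 10 CPM rose in 17 of 22, with a median of 2.3. Enterocyte genes of at least 100 CPM fell in 5 of 5 cases, and those under 10 CPM rose in 23 of 26. Sarcomere genes were less divided. Of 50 at 100 CPM or more 35 fell and 9 rose, and of 17 at 10 to 100 CPM 6 fell and 8 rose. Under 10 CPM 4 of 4 rose. Genes under 10 CPM include genes that passed the filter through 72 hpf only, and the filter thereby favours rises in that class. The levels that set the classes are also the levels that give the change. The same split was not made over all tested genes, so these counts have no background of their own level class. They cannot be read as particular to these tissues.

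**Figure D3:**
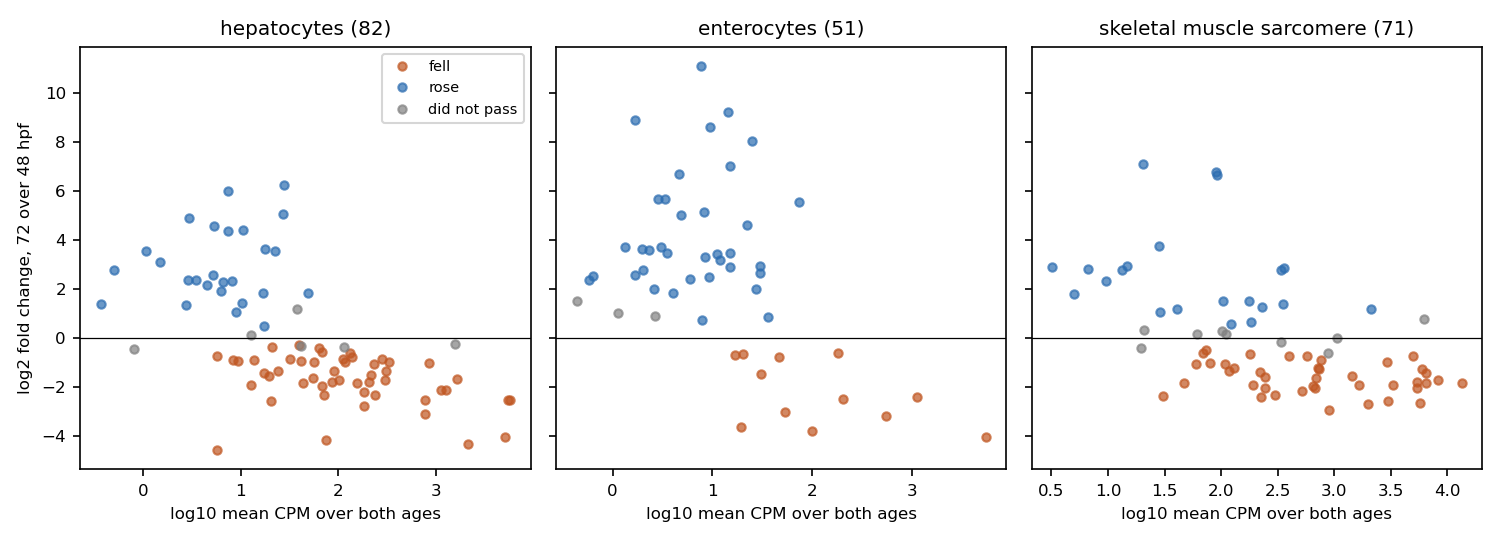
Log2 fold change (72 over 48 hpf, y axis) against log10 mean CPM over both ages (x axis) for tested members of the hepatocyte, enterocyte and skeletal muscle lists; colours mark genes that rose, fell or did not pass. In the hepatocyte and enterocyte panels the rises lie mainly to the left and the falls to the right. In the skeletal muscle panel most falls lie to the right, but rises lie at all levels, 9 of them at 100 CPM or more.

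Endocrine cell genes of gut and islets rose in 21 of 31 tested cases and fell in 1, with 8 tested through 72 hpf only. gcga, glucagon, rose by 1.53 on the log2 scale, whereas ins, insulin, did not pass, at 13.7 and 19.6 CPM (adjusted p = 0.0629). ins did pass without the second library of 48 hpf, with no filter, under library totals and with a replicate block. It also passed in the model of all 12 libraries and by DESeq2 and limma-voom. muc5.3, a gel-forming mucin, rose from 0.0855 to 12.6 CPM, and agr2, needed for mucin folding, fell from 139 ± 32.6 to 101 ± 5.07 CPM (adjusted p = 0.0246). The call for agr2 was lost when any library but the second of 48 hpf was left out. Complement genes fell in 15 and rose in 6 of 28 tested cases (11 and 7 under library totals). Their share of counts overlapped between the ages, at 0.151%, 0.0925% and 0.170% at 48 hpf and 0.117%, 0.104% and 0.0867% at 72 hpf. cfhl4, a factor H-like regulator, fell from 318 to 57.6 CPM and c9, of the membrane attack complex, from 283 to 101 CPM. c3a.2, a copy of the central component C3, rose from 0.739 to 9.37 CPM, while another copy, c3a.1, did not pass, at 247 and 249 CPM at 48 and 72 hpf.

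Embryonic blood genes fell together. Of 30 tested erythroid and heme synthesis genes 26 fell and 1 rose, with a median of -2.52. hbbe3, an embryonic beta globin, had 1182, 1109 and 617 CPM at 48 hpf and 1.09, 0.165 and 0.317 CPM at 72 hpf. hbae3, an embryonic alpha globin, had 9514, 7451 and 8283 CPM at 48 hpf and 731, 565 and 603 CPM at 72 hpf. The levels at 72 hpf were below every level at 48 hpf for both, but hbbe3 fell to near nothing (log2 fold change -10.79, SE 0.48) while hbae3 kept a measurable level (log2 fold change -3.73, SE 0.16). Globins share reads among close copies, so the split between members is uncertain. As a list they fell in 12 of 15 tested cases and went from 2.03% ± 0.339 to 0.153% ± 0.00924 of counts. The adult globins hbaa1 and hbba1 were not tested, having too few counts. slc4a1a, the anion exchanger of the red cell membrane, fell from 609.8 ± 119 to 13.4 ± 1.27 CPM, alas2, the first enzyme of heme synthesis in red cells, by 4.78 on the log2 scale, and gata1a, the erythroid master regulator, by 4.42. The 3 globins that rose were ngb, neuroglobin, by 3.32 on the log2 scale (adjusted p = 1.21e-07), mb, myoglobin, by 1.16, and cygb2, a cytoglobin, by 1.69; mb and cygb2 were named after their values were seen.

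Myeloid genes fell in 16 and rose in 7 of 28 tested cases, with 3 tested through each age alone. lyz, lysozyme, had 10.8, 6.92 and 8.08 CPM at 48 hpf and 0.447, 0.110 and 0.158 CPM at 72 hpf. Every library of 72 hpf was lower (adjusted p = 2.19e-06, log2 fold change -5.11, SE 0.39). mpeg1.1, a macrophage perforin, fell from 12.1 to 2.58 CPM, and mpx, the neutrophil peroxidase, from 29.0 to 13.4 CPM. il1b, an inflammatory cytokine, went the other way, from 0.181 ± 0.0984 to 19 ± 4.4 CPM, and mmp9, a secreted protease of inflamed tissue, from 10.01 ± 1.96 to 72.1 ± 21.2 CPM. Of 10 tested lymphoid genes, 4 of them tested through 72 hpf only, 6 rose and 1 fell. rag1, the recombinase of lymphocyte receptors, rose from 0.846 ± 0.333 to 2.70 ± 0.154 CPM, and foxn1, the thymus epithelium factor, by 1.04 on the log2 scale. The call for foxn1 was lost without the first library of 48 hpf or any of 72 hpf. Endothelial genes fell in 24 and rose in 7 of 35 cases. etv2, the factor that starts vessel formation, fell by 2.37 on the log2 scale. lyve1b, a lymphatic and venous receptor, and kdrl, a VEGF receptor, fell by 3.39 and 0.71. vwf, von Willebrand factor, rose from 0.308 to 2.97 CPM.

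Muscle genes divided by kind. Of 71 tested sarcomere genes 21 rose and 41 fell, and their share of counts went from 12.1% ± 3.19 to 6.60% ± 0.360. ckma, muscle creatine kinase, fell from 9837 ± 3189.7 to 1568 ± 179 CPM, mylpfa, a fast myosin light chain, by 1.74 on the log2 scale, and pvalb1, a parvalbumin that binds calcium, by 1.86. myhb, a fast myosin heavy chain, had 1.69, 1.47 and 2.24 CPM at 48 hpf and 182, 188 and 176.4 CPM at 72 hpf. Its 72 hpf libraries were all far above those of 48 hpf (adjusted p = 4.69e-09, log2 fold change 6.65, SE 0.15). ttn.1 and ttn.2, the giant titins that span the sarcomere, went from 87.3 to 629 CPM and from 87.0 to 596 CPM, and neb, nebulin, which lines the thin filament, from 196 to 511 CPM; these 3 were chosen after their values were seen. mybpc1, a myosin-binding protein of slow fibres, rose by 3.74 on the log2 scale. Myosin heavy chains of striated muscle, whose close copies share reads, rose in 9 of 16 cases and fell in 2.

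Myogenic regulators fell in 11 and rose in 3 of 17 tested cases (9 and 4 under library totals). Their share of counts went up, from 0.0304% ± 0.00335 to 0.0377% ± 0.000953. myog, which drives fusion into fibres, fell from 14.8 ± 1.29 to 2.68 ± 0.634 CPM. myf5, which marks early myoblasts, fell by 2.17 on the log2 scale. Heart muscle genes fell in 13 and rose in 4 of 19 cases (9 and 5 under library totals). Their share of counts did not fall, at 0.0297% ± 0.00545 and 0.0338% ± 0.00109 at 48 and 72 hpf. nppa, atrial natriuretic peptide, and myl7, a cardiac light chain, fell by 2.17 and 1.01 on the log2 scale. myh7, a ventricular myosin heavy chain in mammals, rose by 1.92. Smooth muscle genes rose in 9 and fell in 3 of 16 cases. acta2, smooth muscle actin, went from 7.05 ± 1.33 to 91.9 ± 5.70 CPM, and myh11a, smooth muscle myosin, from 5.63 ± 1.03 to 37.7 ± 4.34 CPM.

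The skeleton rose in its cartilage. Of 35 tested cartilage genes 27 rose and 4 fell, and they went from 0.275% ± 0.0276 to 1.49% ± 0.0819 of counts. matn1, matrilin 1, a matrix protein of cartilage, had 3.81, 1.86 and 10.15 CPM at 48 hpf and 1119.9, 1224 and 1011 CPM at 72 hpf. The 2 ages did not overlap (adjusted p = 7.42e-07, log2 fold change 7.72, SE 0.50). col2a1a, the fibril collagen of cartilage, rose from 453 ± 74.6 to 3981 ± 356 CPM, acana, aggrecan, by 4.52 on the log2 scale, and col11a2 and col9a1a, minor fibril collagens, by 3.74 and 2.87. sox9a, the factor that commits cells to cartilage, did not pass (from 43.7 to 42.6 CPM, adjusted p = 0.822). Among bone and tooth genes 13 rose and 6 fell of 23, with 9 tested through 72 hpf only. odam and scpp5, secreted proteins of tooth and scale mineral, rose from 0.0214 to 14.1 CPM and from 0.409 to 20.9 CPM, and col10a1a, known from cartilage about to be replaced and from fish bone, by 2.95 on the log2 scale. Collagens as a family rose in 36 and fell in 9 of 56 cases, the pattern having also taken 2 genes named after collagen that are no collagens.

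More genes of the fin fold and notochord list fell than rose. Of 15 tested fin fold and notochord genes 8 fell, 2 rose and 5 did not pass (5 fell and 3 rose under library totals). Genes of somite segmentation and the tail bud fell in 5 and rose in 3 of 10 tested cases. Of these 10, 2 were tested through 48 hpf only and 1 through 72 hpf only. Their share of counts stayed level, at 0.00927% ± 0.000473 and 0.0095% ± 0.000599 at 48 and 72 hpf. So few genes give no clear direction beside the 35.4% and 34.4% of all tested genes. and1, actinodin 1, a protein of the rigid fibrils in the larval fin fold, had 1021, 727 and 877 CPM at 48 hpf and 72.2, 85.3 and 77.7 CPM at 72 hpf. Every 72 hpf library lay below the lowest of 48 hpf (adjusted p = 8.79e-08, log2 fold change -3.48, SE 0.15). and2 and and3, its relatives, fell by 2.5 and 3.24, and frem2a, which anchors the fin epithelium, by 3.04. The largest rise of the fin fold and notochord list was that of cmn, by 1.03 on the log2 scale.

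Hox genes, which give cells their position along the body axis, fell mainly in the posterior groups. Of 48 tested 31 fell and 6 rose, and under library totals 27 fell and 13 rose. All 23 tested genes of paralogue groups 9 to 13, which act in the trunk, tail and fins, fell, 22 of them at least 2-fold, with a median log2 fold change of -2.60. In groups 11 to 13 all 14 tested fell, from -5.60 to -1.95, but 7 of these passed the filter through 48 hpf only, which favours a fall. The 25 tested of groups 1 to 8, which act further forward, had a median of -0.038, with 6 rises, 8 falls and 11 that did not pass. Among these, 2 of 4 in group 1, both of group 2 and the single tested gene of group 7 fell (log2 fold change -1.51), and groups 3 to 5 held 5 of the rises and no fall. This grouping by paralogue number was made with the values known. hoxc13a had 14.5, 14.4 and 15 CPM at 48 hpf and 0.298, 0.274 and 0.317 CPM at 72 hpf. Its older libraries were all near nothing (adjusted p = 4.13e-08, log2 fold change -5.60, SE 0.20). hoxb13a, hoxc12a and hoxd12a fell by 4.12, 3.98 and 3.41, whereas hoxc4a rose by 1.07 on the log2 scale. Wnt ligands fell in 13 and rose in 5 of 23 tested cases (11 and 8 under library totals; 5 tested through 48 hpf only and 2 through 72 hpf only), with wnt3a, a signal of the tail bud, down from 1.98 ± 0.144 to 0.0542 ± 0.0549 CPM and wnt5a, which acts in outgrowth of limbs and tail, by 2.86 on the log2 scale.

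**Figure D4:**
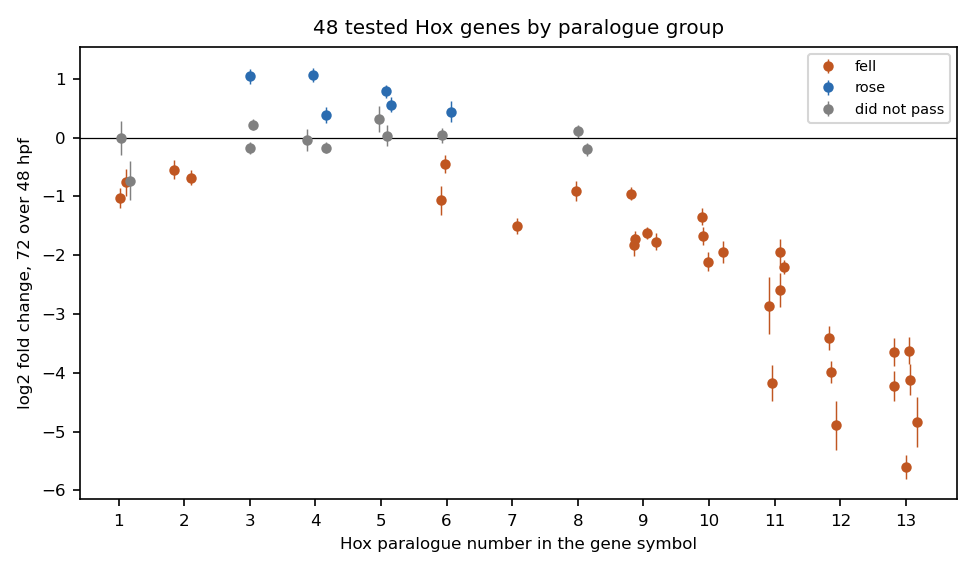
Log2 fold change (72 over 48 hpf, y axis, error bars SE) of the 48 tested Hox genes by the paralogue number in their symbol (x axis, points spread sideways), coloured by call. Groups 9 to 13 lie below 0, down to -5.60 in group 13; groups 1, 2 and 7 have no gene above 0, and groups 3 to 6 and 8 have genes on both sides or above it.

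Skin lost part of its embryonic keratin RNA. Epidermis genes fell in 28 and rose in 18 of 52 tested cases, with a median of -0.44 that was 0.0018 under library totals, where 21 fell and 21 rose. cyt1 and krt4, keratins of the outer cell layer, fell from 5556 to 857 CPM and from 10800.0 to 4652 CPM. krt93, another keratin, had no count at 48 hpf and 1.24, 1.81 and 1.69 CPM at 72 hpf, at least 25.7-fold higher against the floor of 3 counts. Genes of ionocytes, the skin cells that exchange ions with the water, rose in 24 and fell in 4 of 32 tested cases. Of these 32, 7 were tested through 72 hpf only. rhcgb and rhcga, ammonia channels, went from 0.161 ± 0.121 to 12.3 ± 0.729 CPM and from 0.440 to 33.0 CPM. atp1a1a.4, a sodium pump subunit, and slc12a10.2, a sodium-chloride cotransporter, rose by 4.49 and 2.80 on the log2 scale. In the pronephros, the embryonic kidney, 16 of 22 genes rose and 5 fell (6 tested through 72 hpf only). slc12a3, a transporter of the distal tubule, went from 0.805 to 18.4 CPM. lrp2a, megalin, the uptake receptor of the proximal tubule, rose by 2.12 on the log2 scale.

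Genes of all 3 pigment cell types fell. In melanophores, the black cells, 16 of 19 tested fell and 2 rose, and in the silver iridophores and yellow xanthophores 18 of 21 fell and 2 rose. mitfa, the factor that specifies melanophores, had 13.9, 19 and 11.8 CPM at 48 hpf and 0.696, 0.603 and 0.897 CPM at 72 hpf. gch2, which starts pteridine pigment synthesis in xanthophores, had 1950.5, 1467 and 1743 CPM at 48 hpf and 66.2, 58.8 and 63.6 CPM at 72 hpf. In both, every older library was lower than every younger one, with log2 fold changes of -4.33 and -4.77 and adjusted p-values of 4.84e-07 and 2.45e-08. tyr, tyrosinase, which makes melanin, fell from 50.4 ± 18.9 to 7.63 ± 0.178 CPM, pnp4a, a purine enzyme of iridophores, from 97.8 ± 22.7 to 20.1 ± 1.22 CPM, and csf1ra, a receptor of xanthophores and macrophages, by 4.35 on the log2 scale. The exception with the largest rise was trpm1a, a channel of melanophores and of retinal bipolar cells, from 1.87 to 14.4 CPM. Neural crest markers fell in 12 and rose in 6 of 20 cases (7 and 6 under library totals), sox10 by 0.93 on the log2 scale.

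RNA of the hatching gland fell to near 0. Of 8 tested genes 6 fell and 1 rose; 3 were tested through 48 hpf only and 1 through 72 hpf only. he1.1, a hatching enzyme of the astacin family, had 1259, 861 and 1845 CPM at 48 hpf and 0.845, 1.70 and 3.48 CPM at 72 hpf. he1.2, its neighbour in the family, had 518, 294 and 593 CPM at 48 hpf and 0.547, 0.549 and 0.317 CPM at 72 hpf, and the 2 share sequence, so their split is uncertain. Both were high in every younger library and close to 0 in every older one. A cathepsin L gene of the gland, ctslb (ENSDARG00000074306), had 22.6, 32.3 and 39.8 CPM at 48 hpf and no count at 72 hpf, at least 604-fold lower against the floor of 3 counts. cd63, a membrane protein of secretory granules that many cells use, did not pass, at 119 and 119.8 CPM at 48 and 72 hpf. The single rise in the list was c6ast4, another astacin protease, with no count at 48 hpf and 4.92, 13.1 and 4.27 CPM at 72 hpf, at least 119-fold higher.

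Under TMM scaling more ribosomal protein, DNA replication and mitosis genes fell than rose. The tRNA synthetases went the other way, with 12 rises and 4 falls of 33. Cytosolic ribosomal proteins fell in 82 of 86 tested cases, with a median of -1.29, and went from 14.3% ± 0.328 to 7.21% ± 0.549 of counts. The direction held under library totals, with 80 falls and a median of -0.85. rplp0, of the large subunit, had 7667, 6930.0 and 8315 CPM at 48 hpf and 1219, 1258 and 1093 CPM at 72 hpf. No library of 72 hpf reached the lowest of 48 hpf (adjusted p = 1.56e-07, log2 fold change -2.68, SE 0.13). rps8a and rps23, of the small subunit, fell by 2.26 and 2.22 on the log2 scale, while rps8b, a copy of rps8a, rose from 1.68 to 5.73 CPM. Mitochondrial ribosomal proteins fell in 63 of 74 cases and none rose, while under library totals 32 fell and 9 rose (median -0.27). Factors that assemble ribosomes had no common direction, 20 up and 36 down of 88, with a median of -0.16 that became 0.28 under library totals, with 45 up and 13 down. Their share of counts went up, from 0.305% ± 0.0143 to 0.414% ± 0.00702. ncl, nucleolin, rose by 0.77 on the log2 scale and bysl fell by 1.45, and fbl, fibrillarin, did not pass (log2 fold change 0.031, adjusted p = 0.769).

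Respiratory chain genes are divided between the nuclear and the mitochondrial genome. Of 97 tested nuclear genes 74 fell and 8 rose, but 32 fell and 20 rose under library totals (median -0.11). Of the 13 genes of mitochondrial DNA 11 rose and 2 fell, and their share of counts went from 1.80% ± 0.135 to 3.84% ± 0.0457. mt-co1, a core subunit of cytochrome oxidase, rose from 5534 ± 250.4 to 13483 ± 690.4 CPM, and cox6a1, a nuclear subunit of the same enzyme, fell from 357 ± 16.1 to 75.9 ± 11.1 CPM. mt-nd3 fell from 713 to 212 CPM.

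DNA replication genes fell in 42 of 59 tested cases and rose in 3, and mitosis genes in 50 and 1 of 61. Under library totals 25 replication genes fell and 12 rose, and 30 mitosis genes fell and 6 rose. pcna, the sliding clamp of replication, had 578, 481 and 535 CPM at 48 hpf and 237, 244 and 214 CPM at 72 hpf. All older libraries were lower (adjusted p = 6.88e-06, log2 fold change -1.20, SE 0.11). mcm5 and mcm7, of the replicative helicase, fell by 0.93 and 1.3, cdk1, the kinase of entry into mitosis, by 1.35, and mki67, a marker of cycling cells, by 0.72. dnmt1, the maintenance DNA methyltransferase, rose by 0.49 (adjusted p = 0.0022). Factors of early developmental timing fell in 11 of 16 cases and none rose (9 and 3 under library totals). lin28b, an RNA-binding protein that blocks maturation of let-7 microRNA in mammals, fell from 5.13 ± 1.28 to 0.216 ± 0.201 CPM, hmga2, a chromatin protein of embryonic cells, from 103 ± 11.1 to 9.73 ± 1.4 CPM, and pou5f3, the fish relative of Oct4, by 2.32 on the log2 scale.

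**Figure D5:**
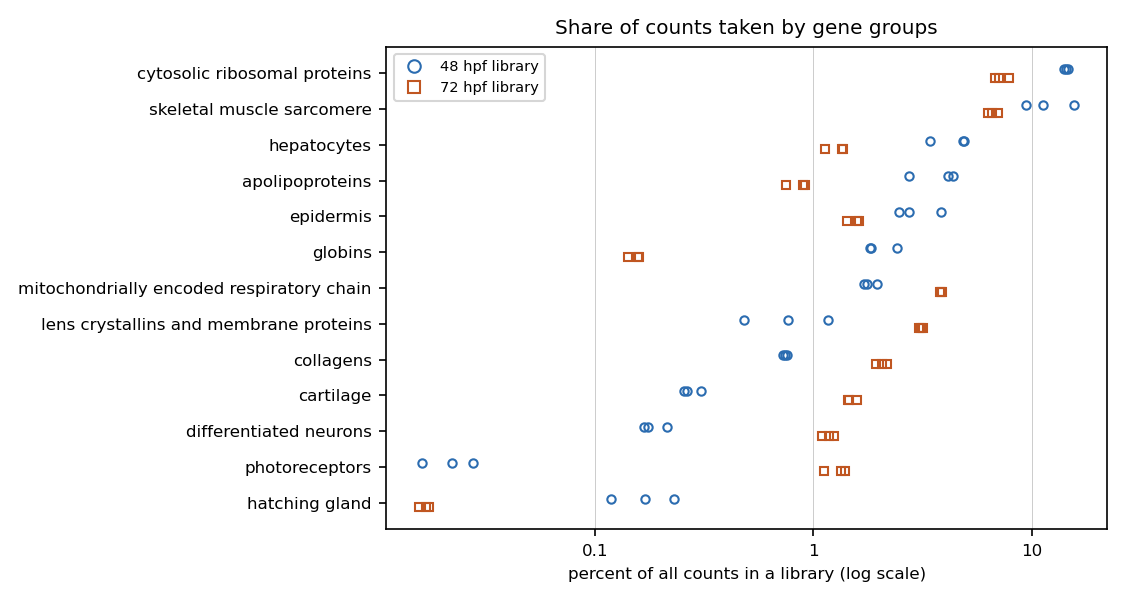
Percent of all counts of a library (x axis, log scale) taken by the genes of 13 groups (y axis) in the 3 libraries of 48 hpf (circles) and the 3 of 72 hpf (squares). Ribosomal proteins, liver, blood, muscle and skin groups stand lower at 72 hpf, and lens, cartilage, neuron, photoreceptor and mitochondrially encoded groups higher.

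Clock genes rose in 24 and fell in 3 of 34 tested cases. The ages are 24 hours apart; the hour of collection and the lighting are not stated. nr1d1, a repressor in the clock's loop, had 2.78, 2.5 and 3.07 CPM at 48 hpf and 87.1, 80.0 and 87.9 CPM at 72 hpf. The younger libraries were low throughout and the older high (adjusted p = 6.69e-09, log2 fold change 4.93, SE 0.12). per2 and per1a, feedback repressors of the clock, went from 38.0 to 196 CPM and from 2.13 to 24.6 CPM, dbpa, an output factor, rose by 4.03 on the log2 scale, and arntl2, of the activating arm, fell by 1.42.

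Genes of glucose metabolism rose in 18 and fell in 16 of 42 cases, shares not far from those of all tested genes. eno2, the neuronal enolase, and pkma, a pyruvate kinase, rose by 3.15 and 2.56 on the log2 scale. fbp1b, a gluconeogenic phosphatase, fell by 2.77. Cholesterol synthesis genes rose in 17 and fell in 5 of 25 cases. hmgcra, the rate-limiting reductase, went from 2.88 ± 0.515 to 40.1 ± 3.83 CPM, and ldlra, the LDL receptor, from 2.04 to 29.2 CPM. Cytochrome P450 genes, oxidases of steroids, bile acids and foreign compounds, rose in 38 and fell in 15 of 73 tested cases, 26 of these through 72 hpf only. cyp3a65 went from 0.714 ± 0.253 to 54.3 ± 10.32 CPM and cyp8b1, of bile acid synthesis, from 0.956 to 20.3 CPM.

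Some genes went from off to on or back. Off is defined as under 0.5 CPM in each library of an age and on as at least 5 CPM in each library of the other. By this description, made without a test, 112 genes were switched on and 27 off by 72 hpf, and 149 and 15 under library totals. Of those switched on 52 stood on a list or family, 14 of them photoreceptor, 10 exocrine pancreas and 7 enterocyte genes. Of the 27 switched off 7 stood on one, among them hoxc13a and ctslb, and 10 carried clone or locus names only. The share of all tested genes that stand on a list or family was not computed. These counts therefore have no background, and whether switched genes favour a tissue was not tested. dap1b (ENSDARG00000109678) had 1047 counts over the 48 hpf libraries and 3 over those of 72 hpf, a count ratio of 407 in favour of 48 hpf, with an exact 95% counting interval from 139 to 1979. Its libraries stood at 24, 22 and 18.1 CPM at 48 hpf and 0.0994, 0.0549 and 0 CPM at 72 hpf, all 3 older ones near 0. In the libraries labelled mutant it was at 0 CPM at 48 hpf as well. The further switched-off gene kazald2 went from 17.3 ± 2.61 to 0.279 ± 0.151 CPM and mxra5b, named for matrix remodelling, from 17.4 ± 2.08 to 0.388 ± 0.126 CPM. By their means, 91 of the 112 and 19 of the 27 met the same limits in the libraries labelled mutant.

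The same day of development was also measured in the libraries labelled mycn mutant, which allows a test of whether a change differed. Of 4413 genes that rose at least 2-fold in wild type and were tested there, 3901 also rose at least 2-fold in the mutant-labelled libraries, where 21.8% of all tested genes did. Of 3909 that fell 3090 also fell at least 2-fold there, against 18% of all tested genes. The wild-type and mutant-labelled changes compare different libraries. However, the mutant-labelled change came from the model of all 12 libraries, so its scaling, filter and spread estimates also used the wild-type libraries. The difference of the changes passed for 99 of 21068 genes, 0.47%, with the mutant-labelled change higher in 60 and lower in 39. Under library totals it passed for 116, with 43 higher and 73 lower, and with single libraries left out for 23 to 276 genes. Of these 99, 32 belonged to the wild-type genes that rose at least 2-fold and 33 to those that fell. By list they included the liver genes fabp10a and pck1, the enterocyte gene slc6a19a.2, and hbbe1.1, hmgcra and mmp9. fabp10a rose by 3.62 in wild type and by 6.24 in the mutant-labelled libraries (difference 2.60, adjusted p = 0.0329). mycn itself did not pass between the ages in wild type, at 73.4 and 75.8 CPM (adjusted p = 0.756), and stood at 222 ± 25.2 CPM in the 48 hpf libraries labelled mutant, a difference between genotypes that is not tested here.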

How the data were processed

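Whole-table gene counts were deposited by the authors as raw counts of 31465 genes in 12 libraries, and every row named a gene. For the steps before, GRCz11, STAR, featureCounts and DESeq2 are listed, per the submitters' processing notes, without versions or roles. CPM values (counts per 1000000 of the library size scaled by TMM) were computed here from the deposited counts. Whether counting used strand, and how reads of near-identical copies were assigned, is not given, so overlapping genes, antisense genes and close copies are uncertain.

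Counts of the 6 wild-type libraries were scaled by TMM, filtered with filterByExpr (minimum count 10) and tested with edgeR 4.0.16 (quasi-likelihood F test, Benjamini-Hochberg adjustment over all 20470 genes) in R 4.3.3. A model of all 12 libraries gave the change in the mutant-labelled libraries and tested whether the change differed between genotypes. The scripts were tested on simulated data. Replicate pairs differed beyond sampling noise, with a chi-square per degree of freedom of 4.14 to 49.7. Folds against groups at 0 use a floor of 3 counts over the group, and 95% intervals cover counting error only, since reads are not independent molecules.

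Alternatives were other size factors, library totals, other filters, DESeq2 1.42.0, limma 3.58.1 (voom), a replicate block, a test against a 2-fold change, other limits for off and on, and leaving out each library. Named genes are the 15 largest rises and falls, anchor genes of each tissue, up to 4 genes of smallest p per list with the largest exception, 10 genes switched on and 10 off, and the 6 genes of smallest p for the genotype difference, of which the text gives a part; mycn is named as the gene of the series. Symbols were matched with the help of synonyms in a RefSeq table of GRCz12tu, from which no coordinate was used. The gene lists, families and comparisons were chosen with earlier results of these data known. A few genes are not reported here.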

Additional observations from a re-analysis of the deposited data

Results flagged for a closer look

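The change from 48 to 72 hpf differed between the wild-type libraries and those labelled mycn mutant for 99 genes, by the interaction contrast of edgeR's model of all 12 libraries. At an unadjusted p under 0.05 there were 2187 such genes. Of 97 of the 99 that were tested in wild type alone, 38 rose there, 43 fell and 16 did not pass. The 6 genes of smallest p for this difference follow, with the difference as the mutant-labelled minus the wild-type log2 fold change.

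mgst2, a microsomal glutathione transferase, went from 33.8 to 6.36 CPM in wild type and from 5.71 to 5.71 CPM in the mutant-labelled libraries, a difference of 2.39 (adjusted p = 5.71e-05). cyp2ad3, a cytochrome P450, stood at 43.5 and 35.7 CPM in wild type and went from 26.2 to 53.7 CPM in the others, a difference of 1.31 (adjusted p = 6.87e-04). For tmem176l.3a, named for a transmembrane protein, the means were 22.1 and 6.30 CPM in wild type and 5.72 and 6.61 CPM in the mutant-labelled libraries, which gives 2.01 (adjusted p = 6.87e-04).

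The other 3 carry clone names only. si:dkey-169i5.4 had 3.68 and 3.29 CPM in wild type and 0.0442 and 3.14 CPM in the mutant-labelled libraries (difference 6.11, adjusted p = 5.71e-05). si:ch211-113d11.5 had 78.8 and 9.85 CPM against 4.99 and 20.7 CPM (difference 5.03, adjusted p = 0.00239). si:dkey-93m18.6 had 3.72 and 0.589 CPM against 0 and 0.457 CPM (difference 8.61, adjusted p = 0.00266). All 6 passed in every alternative that was run. Groups of 3 libraries are too small for a check of single outlying samples, and none was made.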

How the results depend on the processing

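Total counts of genes that changed in wild type, both directions together, held within 1.5 times in every alternative run. The count of 14286 ran from 12818 to 14638 with single libraries left out, that of 8328 changed at least 2-fold from 8143 to 8596, and that of 139 switched on or off from 137 to 183. A test against a 2-fold change called 5888 genes. Switched genes numbered 118 with limits of 1 and 10 CPM, 140 with size factors of DESeq2 and 164 under library totals. Library totals changed the splits: 6300 genes rose and 2315 fell at least 2-fold, and 149 were switched on and 15 off. Of 94 list and family medians 11 turned sign under library totals, among them, of those described in the text, epidermis (0.0018), neural progenitors and Notch (0.28) and ribosome biogenesis (0.28); the other 8 are of families given no direction here. That of glycolysis and gluconeogenesis, 0.042, turned to -0.14 without wild-type library 3 of 48 hpf and was 0.31 without library 2. Among single genes cyp2ad3 (0.16) and sox9a (0.41) turned under library totals. The causes were not tested.

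The count of 99 genes that differed between genotypes depended on the method: 266 by DESeq2, 230 by limma-voom and 175 with no filter. Without single libraries it ran from 23 to 276. It was 276 and 264 without wild-type libraries 2 and 3 of 48 hpf, 47, 23 and 37 without libraries 1, 2 and 3 of 72 hpf, 54 and 51 without mutant-labelled libraries 1 and 2 of 48 hpf, and 43, 37 and 24 without libraries 1, 2 and 3 of 72 hpf.

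With the replicate number as a block 13732 genes changed, 8239 of them at least 2-fold, and 59 differed between genotypes. Same-numbered libraries had correlations of deviations from -0.00355 to 0.00542, so no pairing by number was seen. With 3 libraries for each age these values cannot tell whether same-numbered libraries shared a clutch or batch. Genes at a few counts, in particular those at 0 at 48 hpf, have folds that the depth limits.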

Other observations

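In the inner ear, genes of hair cells and of the otic vesicle rose in 13 and fell in 3 of 23 tested cases, with 6 tested through 72 hpf only. stm and otomp, matrix proteins of the ear stones, went from 57.2 ± 4.47 to 159 ± 11 CPM and from 13.8 ± 1.29 to 35.9 ± 0.874 CPM, and otofa, otoferlin, which triggers release at hair cell synapses, from 5.22 to 20.3 CPM. In contrast pvalb9, a parvalbumin, fell from 845 ± 173 to 39.1 ± 2.11 CPM, and oc90, an early protein of the ear stones, from 2.37 to 0.681 CPM. Genes of cell junctions went both ways. Among 29 tested claudins, which seal epithelia, 17 rose and 8 fell: cldn15la and cldnc went from 6.97 to 53.2 CPM and from 8.36 to 52.3 CPM, while cldn5a, known from the blood-brain barrier, fell from 22.7 to 4.25 CPM. Of 26 connexins, which form gap junctions, 12 rose and 8 fell (9 tested through 72 hpf only; 13 and 4 under library totals), with gjd1a, of electrical synapses, from 2.64 to 26.7 CPM and cx43.4 from 162 to 49.6 CPM. The aquaporin aqp9b, which also passes glycerol, rose from 0.825 ± 0.377 to 65.3 ± 5.22 CPM, and aqp1a.1, a water channel of red cells and vessels, fell from 244 ± 48.7 to 60.7 ± 1.04 CPM, among 4 rises and 9 falls of 13 tested, of which 4 passed the filter through 72 hpf only and 2 through 48 hpf only.

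Fgf ligands fell in 11 and rose in 7 of 28 tested cases, with 3 tested through each age alone. These shares are near the 35.4% and 34.4% of all tested genes, 5 fell and 11 rose under library totals, and the share of counts went from 0.0104% ± 0.000862 to 0.0252% ± 0.00114. Among single members fgf8a, a secreted signal of early brain and tail, fell from 7.63 to 1.97 CPM, and fgf12a and fgf14, of the subfamily that stays inside cells and binds sodium channels in mammals, rose from 2.5 to 22.6 CPM and from 1.16 to 7.67 CPM. Of the bone morphogenetic and growth differentiation ligands 11 fell and 6 rose of 22 (10 and 9 under library totals; 3 tested through 72 hpf only and 2 through 48 hpf only), with bmp2b and bmp4 down from 32.3 to 11 CPM and from 43.6 to 13.2 CPM. LIM homeobox factors, which specify neuron types, rose in 8 and fell in 2 of 14, isl1 from 35.8 to 101 CPM and lhx1a from 22.6 to 70.12 CPM. In the interrenal and gonad group star, which feeds cholesterol into steroid synthesis, fell from 11 to 3.96 CPM, cyp11c1, of the last step to cortisol, rose from 1.70 to 5.84 CPM, and nanos3, a germ cell gene, fell from 2.89 ± 0.573 to 0.215 ± 0.242 CPM. Among enzymes of detoxification, glutathione transferases fell in 11 and rose in 3 of 21 tested cases (8 and 6 under library totals). In this family gstp2 rose from 0.999 ± 0.0288 to 60.6 ± 6.55 CPM, and gstt1a fell from 229.7 to 49.7 CPM. Of 21 tested UDP-glucuronosyltransferases 14 rose and 4 fell, 5 being tested through 72 hpf only. Cytosolic and mitochondrial tRNA synthetases rose in 12 and fell in 4 of 33 cases, none at least 2-fold, and in 23 and 0 under library totals.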
